A study of Mus musculus with 12 samples.

Results

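The response of Bach2-/- B cells to engagement of the B cell receptor was measured on 6 of the 12 arrays of the study, 3 arrays of Bach2-/- cells before stimulation (0 h) against 3 arrays after 24 h with anti-IgM. The members were the arrays whose titles name the Bach2-/- genotype at these times, and all genes measured on them were compared. Both groups held follicular zone B cells of the spleen from C57BL/6J mice that the labels give as male, and the 24 h cells were cultured with 10 µg/mL of a Fab' antibody to mouse IgM. The other 6 arrays held the same cells of WT mice at the same times, with 3 arrays in each group. The design text asks what lies behind the poor proliferation of Bach2-/- follicular cells under such a stimulus. The labels give neither the deleted part of Bach2 nor the age of the mice, name no unstimulated 24 h culture, and do not say whether replicates were separate animals. A change over 24 h therefore covers both the antibody and the culture, which cannot be told apart, and p-values rest on the spread among these arrays alone, part of which may be technical.

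Bach2 is a transcriptional repressor that forms dimers with small MAF proteins and binds Maf recognition elements, sites which overlap those of AP-1 and of the oxidative stress factor NRF2. It is released from them when heme binds to it. In B cells it restrains Prdm1, the gene of the plasma cell regulator BLIMP-1. Antigen receptor signaling in a resting B cell runs through SYK and BTK to calcium, MAP kinase and NF-kB pathways. It turns on early transcription factors and MYC, raises ribosome, nucleotide and lipid synthesis, lowers quiescence and homing genes, and allows entry into the cell cycle.

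Signals are given as log2 of the processed signal over the 75th percentile of the array. Changes are 24 h minus 0 h on that scale, with 3 arrays at either time (n = 3). Each is given ± its standard error from the limma fit of the arrays of both genotypes. That error pools the spread within all groups with limma's prior, and is not the spread of the Bach2-/- arrays alone. Adjusted p is limma's, by Benjamini-Hochberg over 22742 genes. Rose and fell are used of genes with an adjusted p under 0.05. The 75th percentile ran from 94.1 to 356 units over the 6 arrays, and 50.9% to 59.1% of their spots were well above background. Replicate 1 of every group lay on slide 2 and the others on slide 1, and the replicate number was a block in the fit. Bach2-/- 0 h array 1 went against its label, since the Y-linked gene Ddx3y was at the floor there (-6.64) and between 0.17 and 1.60 on the other 11 arrays. Bach2-/- 24 h array 2 was the dimmest. The counts of a gene list without both of these arrays, called the doubted arrays, are given where they differ. Over the 6 arrays the first principal component (45.5% of the variance) parted the times and the second (43.2%) parted replicate 1 from the others. The reported Bach2 probe gave 1.11, 0.82 and 0.96 at 0 h against -0.067, -0.96 and -0.081 at 24 h, below the WT arrays (3.80, 3.25 and 3.54 at 0 h against 3.50, 3.09 and 3.55 at 24 h).

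Among genes measured above background on all 6 Bach2-/- arrays, Pdcd1, Rgs16, Cd5l, Ccl3 and Ifng had some of the largest rises after 24 h of anti-IgM, and Cacna1i, Ltb and Icosl some of the largest falls. In all, 7831 genes (34.4%) passed the test, 4024 higher (17.7%) and 3807 lower (16.7%), and 3633 (16%) did so with a change of at least 2-fold, 1651 higher (7.26%) and 1982 lower (8.72%). The counts of the gene lists below are to be read against the 17.7% and 16.7%. These shares cover all 22742 genes, of which 13135 had a RefSeq symbol. Of the 7831 called genes 5293 had one, so genes with a symbol passed more often than those without. For lists of named genes the shares are thus a low yardstick. The lists were also chosen with earlier results of these data known. The arrays of the 2 times did not overlap for 5947 genes (26.1%), among them 5078 of those past the test. WT cells had 10799 calls (47.5%), 6430 higher (28.3%) and 4369 lower (19.2%). Of the genes that rose in Bach2-/- cells 76.67% also rose in WT cells, which is 47.98% of those that rose there. Of the genes that fell 69.95% also fell in WT cells, 60.95% of those that fell there. The median absolute change over all genes was 0.38 in Bach2-/- and 0.51 in WT cells. Without the doubted arrays 6680 genes passed in Bach2-/- cells, without the replicate block 3254, and without replicate 3 of every group 3786.

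Pdcd1, which encodes the inhibitory receptor PD-1, had the largest rise among genes well above background on all 6 arrays. Its levels were -2.93, -4.10 and -3.49 at 0 h against 5.36, 5.03 and 5.05 at 24 h, a change of 8.65 ± 0.33 (adjusted p = 1.77e-07). The chemokine genes Ccl3 (-3.40, -2.98 and -1.14 at 0 h against 5.81, 4.97 and 6.27 at 24 h) and Ccl4 (0.12, -0.47 and 0.14 at 0 h against 8.15, 7.08 and 7.95 at 24 h) rose by 8.19 ± 0.47 and 7.80 ± 0.30. On no 24 h array did either lie near its 0 h levels. Ifng, the gene of interferon gamma, gave -2.76, -3.06 and -2.25 at 0 h against 5.57, 5.29 and 5.18 at 24 h and rose by 8.03 ± 0.27. Rgs16, a regulator of G protein signaling, gave -2.88, -3.03 and -3.14 at 0 h against 5.55, 5.94 and 4.96 at 24 h and rose by 8.50 ± 0.21.

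Hmox1, the gene of heme oxygenase 1, which breaks down heme, was close among its replicates at both times. It gave -0.30, -0.72 and -0.63 at 0 h against 6.01, 5.99 and 5.62 at 24 h and rose by 6.42 ± 0.15 (adjusted p = 2.54e-08). Cd5l, whose protein CD5L is a secreted scavenger receptor, gave -2.49, -3.31 and -3.44 at 0 h against 4.86, 6.34 and 4.42 at 24 h, with the widest spread at 24 h among the 12 largest rises. It rose by 8.29 ± 0.47. The others among the 12 largest were Axl (6.95 ± 0.27), a receptor tyrosine kinase gene, Hic1 (6.39 ± 0.21), a transcriptional repressor gene, Tacc2 (6.33 ± 0.22), Ifitm2 (6.24 ± 0.32), an interferon-induced membrane protein gene, and the metallothionein gene Mt1 (6.10 ± 0.30). For the 12 the adjusted p was 2.54e-08 to 1.59e-06.

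Among genes not well above background on any 0 h array, a change is a bound, the bright group's mean over the lowest level that counted as above background. Ndrg4 (at least 172-fold), the aryl hydrocarbon receptor target Cyp1a1 (at least 163-fold), the quinone reductase gene Nqo1 (at least 138-fold) and Plau (at least 102-fold), which encodes urokinase, had the largest rises by bound. Plau was at 2.04, 1.58 and 1.76 on the 24 h Bach2-/- arrays and below background throughout the WT arrays.

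The T-type calcium channel gene Cacna1i had the largest fall among genes measured on all 6 arrays, from 3.76, 3.49 and 3.58 at 0 h to -4.24, -2.51 and -3.00 at 24 h (-6.86 ± 0.35); its other probe had the opposite sign and was not called. Ltb, the gene of lymphotoxin beta, fell from 9.07, 8.71 and 8.71 to 1.89, 2.69 and 1.69, a change of -6.74 ± 0.28. Icosl, whose product engages ICOS on T cells, fell from 4.85, 4.44 and 4.83 to -2.09, -1.37 and -1.50 (-6.36 ± 0.20). The 3 arrays of each time stood far apart for all of these. Klf2, a transcription factor gene of quiescence and migration, went from 7.08, 6.79 and 7.12 to 1.78, 1.83 and 1.70 (-5.22 ± 0.16). Cr2, which encodes the complement receptor CD21, went from 6.02, 5.47 and 5.65 to 0.84, 0.43 and 0.89 (-4.99 ± 0.15). Both were lower on every 24 h array.

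Vpreb3 (-5.60 ± 0.26), whose product associates with the B cell receptor during its assembly, Abcg1 (-5.08 ± 0.18), a cholesterol exporter gene, Kbtbd11 (-5.01 ± 0.15), Ell3 (-4.72 ± 0.27), an elongation factor gene, the adhesion receptor gene Cd2 (-4.66 ± 0.15) and Arhgef18 (-4.57 ± 0.18) were also among the 12 largest falls, with adjusted p of 7.8e-08 to 1.68e-06 for the 11 named. Of the 3 Kbtbd11 probes 1 had the opposite sign and was not called. Fcgrt (at least 89.9-fold lower), which encodes the neonatal Fc receptor, the sphingosine-1-phosphate exporter gene Spns2 (at least 74.9-fold), Lifr (at least 44.1-fold) and Tmprss13 (at least 30.1-fold) had no 24 h array well above background.

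**Figure D1:**
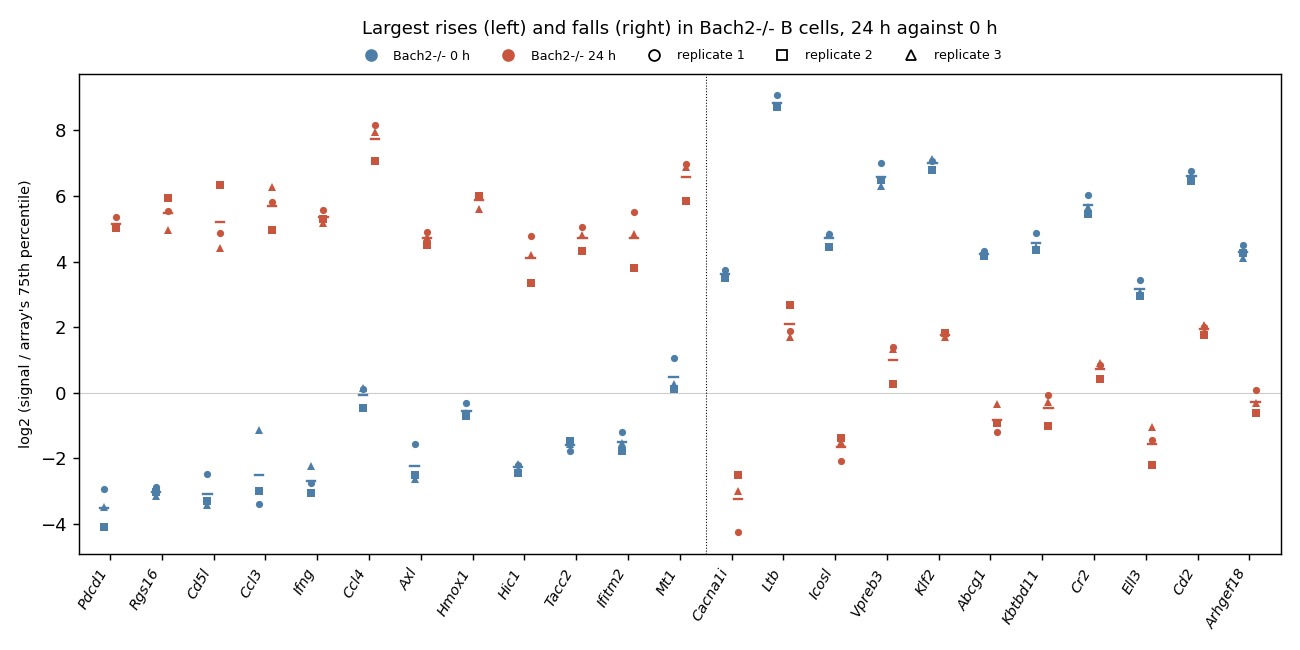
Log2 signal relative to the array's 75th percentile (vertical axis) of the 12 genes with the largest rise and 11 of the 12 with the largest fall on the 6 Bach2-/- arrays. Each point is 1 array, its shape gives the replicate number and the short lines are group means, and in every gene shown the 3 arrays at 24 h lie apart from the 3 at 0 h.

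Early genes of antigen receptor signaling moved in both directions. Of 22 such genes 13 were higher and 5 lower (median change 1.53, against 0.085 over all genes), with 12 higher and 5 lower in Bach2-/- cells without the doubted arrays, and in WT cells 13 and 4. Nr4a3 (at least 9.81-fold higher) and Nr4a2 (2.78 ± 0.35), orphan nuclear receptor genes, Egr2 (4.77 ± 0.16) and Egr1 (2.25 ± 0.26), zinc finger factor genes, and Atf3 (4.38 ± 0.58) and Fosl2 (3.98 ± 0.34) of the AP-1 group rose. The AP-1 genes Fos (-4.14 ± 0.80) and Jun (-2.03 ± 0.33) fell. Egr2 was at 1.51, 1.33 and 1.39 at 0 h against 6.32, 5.99 and 6.24 at 24 h, and Fos at -0.20, 1.86 and 4.09 at 0 h against -1.86, -2.64 and -2.17 at 24 h. The times of these genes did not overlap. AP-1 members thus moved in both directions, while the EGR genes named rose. Ier3, an early gene tied to cell survival, was not well above background at 0 h and was at least 11.1-fold higher, and its change exceeded that in WT cells by 2.56 ± 0.25 (adjusted p = 0.00131). Adjusted p of the changes named was 9.6e-08 to 0.00306. Jun, Nr4a2 and Egr1 of these are outside the 6 largest of the list.

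Genes that restrain MAP kinases all passed the test. Of 11 measured, 7 were higher and 4 lower (median 1.63), against 5 and 3 in WT cells (median 0.28). The phosphatase genes Dusp4 (5.74 ± 0.31) and Dusp14 (2.32 ± 0.19) and the RAS pathway inhibitor genes Spry1 (2.67 ± 0.37) and Spred1 (2.03 ± 0.16) rose, and Dusp10 (-2.20 ± 0.21), whose product acts on p38 and JNK, fell (adjusted p 1.19e-06 to 0.0004). Dusp4 gave -2.05, -2.16 and -0.78 at 0 h against 3.99, 4.36 and 3.88 at 24 h in Bach2-/- and 0.086, 0.0032 and -0.077 at 0 h against 3.78, 3.68 and 3.63 at 24 h in WT cells. Its times lay apart in both genotypes. The change was larger in Bach2-/- than in WT cells for 6 of the 11 by the test of the difference, against 1.93% of all genes, for 2 without the doubted arrays, for 2 to 7 when 1 of the 12 arrays was left out and for 0 without the replicate block.

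Among 14 NF-kB genes 5 were higher and 3 lower (median 0.34), with 5 higher and 2 lower in Bach2-/- cells without the doubted arrays. Traf1 (1.85 ± 0.22), an adaptor gene, and Nfkbie (1.13 ± 0.17), the gene of the inhibitor IkB epsilon, rose, and Bcl3 (-2.73 ± 0.22), the gene of a nuclear IkB protein, fell from 5.24, 4.78 and 4.82 to 2.33, 1.78 and 2.57 (adjusted p 1.15e-05 to 0.00067). In WT cells Bcl3 changed by -0.76 ± 0.22. For Nfkb1 (0.87 ± 0.16) and Nfkbid (1.08 ± 0.20) the calls were lost without the replicate block. The list then had 2 higher and 1 lower.

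Cytokine receptors and costimulatory molecules moved in both directions. Of 26 activation genes 11 were higher and 9 lower (median -0.14), with 10 higher and 9 lower in Bach2-/- cells without the doubted arrays. Il2ra, the alpha chain of the interleukin 2 receptor, gave -1.33, -1.94 and -1.65 at 0 h against 4.25, 3.13 and 3.78 at 24 h and rose by 5.36 ± 0.15, against a WT change of 5.12 ± 0.15. Il2rb, the beta chain, gave -1.28, -2.23 and -1.95 at 0 h against 2.08, 1.92 and 2.03 at 24 h in Bach2-/- cells and -2.17, -2.42 and -1.72 at 0 h against -2.65, -2.53 and -2.67 at 24 h in WT cells. It rose by 3.83 ± 0.22 in the former and changed by -0.51 ± 0.22 in the latter, a difference of 4.34 ± 0.32 (adjusted p = 0.000262). All 3 Bach2-/- arrays at 24 h were above every other array. Il5ra, which encodes the interleukin 5 receptor chain, fell by -2.54 ± 0.19 against -0.22 ± 0.19 in WT cells. The interleukin 4 receptor gene Il4ra (-2.78 ± 0.13) and Cd274 (-2.42 ± 0.14), which encodes PD-L1, fell too (adjusted p 7.8e-08 to 7.74e-06). The costimulatory gene Cd86 gave 3.48, 2.72 and 2.81 at 0 h against 3.23, 2.36 and 2.87 at 24 h and did not pass (-0.18 ± 0.15, adjusted p = 0.382). The early activation marker gene Cd69, at 3.38, 2.43 and 2.87 at 0 h against 2.32, 1.92 and 2.0 at 24 h, fell by -0.82 ± 0.20. Its call was lost without Bach2-/- 0 h array 3 (adjusted p = 0.0513). It was also lost on slide 1 alone, without replicate 3 of every group and without the replicate block (adjusted p up to 0.188 over the settings).

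Of 19 receptors that dampen lymphocyte signaling 7 were higher and 5 lower, with 6 higher and 5 lower in Bach2-/- cells without the doubted arrays. Beside Pdcd1, the checkpoint genes Lag3 (at least 46.4-fold) and Ctla4 (at least 3.12-fold), neither well above background on any 0 h array, and Havcr1 (4.28 ± 0.21), the gene of TIM-1, were higher. Lag3 was at 0.79, 0.81 and 0.76 at 24 h in Bach2-/- and -0.18, -0.55 and -0.28 in WT cells. The B cell lectin gene Cd22 (-3.12 ± 0.18) and the immunoglobulin-like receptor gene Pirb (-2.77 ± 0.19) fell (adjusted p 6.61e-07 to 0.000254). Cd22 gave 4.86, 4.08 and 4.20 at 0 h against 1.14, 1.45 and 1.18 at 24 h, with no overlap.

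Cytokine genes beyond Ccl3, Ccl4 and Ltb rose and fell as well (7 of 15 higher and 4 lower), with 7 higher and 3 lower in Bach2-/- cells without the doubted arrays. Csf1, which encodes the macrophage growth factor M-CSF, gave -0.68, -1.41 and -1.28 at 0 h against 4.64, 2.90 and 3.53 at 24 h and rose by 4.81 ± 0.27. Vegfa (at least 28.6-fold) and Il6 (at least 7.25-fold), genes of an angiogenic factor and of interleukin 6, were not well above background at 0 h (adjusted p 1.27e-06 to 6.26e-06). Il6 stood at -1.50, -2.52 and -2.03 at 24 h and was well above background on 1 of 3 WT 24 h arrays. Ifng, no member of the list, rose in WT cells by 4.15 ± 0.27, and the 2 changes differed by 3.88 ± 0.39 (adjusted p = 0.00146).

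Genes of ribosome production rose in part. Of 39 genes of the MYC network and ribosome biogenesis 22 were higher and 1 lower in Bach2-/- cells (median 0.62), and 34 and 3 in WT cells (median 1.60). Myc itself was at 3.26, 2.28 and 2.28 at 0 h against 4.16, 1.95 and 3.47 at 24 h and did not pass (0.59 ± 0.29, adjusted p = 0.15). In WT cells it was at 2.20, 1.16 and 1.83 at 0 h against 4.59, 3.76 and 3.71 at 24 h and rose by 2.28 ± 0.29 (adjusted p = 0.000172). The Bach2-/- times overlapped, with 24 h array 2 the lowest of the 6, and the WT times did not. That Myc passed in 1 genotype and not in the other is no test of a difference between them. The nucleolar genes Ncl (1.03 ± 0.17), Gnl3 (1.04 ± 0.21), Nolc1 (1.19 ± 0.24) and Pno1 (1.05 ± 0.18) rose (adjusted p 0.0014 to 0.00431, all 4 calls lost without the replicate block), against 2.0, 2.24, 2.0 and 1.97 in WT cells. The other Ncl probe had the opposite sign and was not called. Gnl3, the gene of nucleostemin, gave 2.15, 1.35 and 1.38 at 0 h against 3.43, 1.91 and 2.67 at 24 h. Nolc1, the gene of the nucleolar phosphoprotein NOPP140, gave 4.23, 3.38 and 3.51 at 0 h against 5.63, 3.84 and 5.23 at 24 h.

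This list depended on the arrays and the fit. The number higher was 13 to 33 when 1 Bach2-/- array was left out, 29 without the doubted arrays, 8 on slide 1 alone and 3 without the replicate block. By the test of the difference 10 of the 39 changed less in Bach2-/- than in WT cells, against 3.43% of all genes. That number was 0 without the doubted arrays, 0 to 23 when 1 of the 12 arrays was left out and 0 without the replicate block.

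Enzymes that charge transfer RNAs and the carriers that bring in amino acids were next. Of 20 aminoacyl-tRNA synthetase genes 13 were higher and 1 lower (median 0.83, 1.27 in WT cells), with 15 higher and 1 lower in Bach2-/- cells without the doubted arrays. Those of alanine, Aars (1.53 ± 0.14), cysteine, Cars (1.26 ± 0.18), and asparagine, Nars (1.20 ± 0.14), had the largest rises. Aars gave 4.11, 3.22 and 3.26 at 0 h against 5.53, 4.74 and 4.92 at 24 h, with no overlap. Of 14 transporter genes 8 were higher and 1 lower, with 7 higher and 0 lower in Bach2-/- cells without the doubted arrays. Slc7a5 (2.01 ± 0.15) and Slc3a2 (1.46 ± 0.17), the 2 chains of the large neutral amino acid carrier, and Slc43a3 (1.95 ± 0.14) rose. Slc7a5 gave 0.28, -0.093 and 0.15 at 0 h against 1.99, 1.92 and 2.46 at 24 h. Slc7a3 (5.47 ± 0.21), a cationic amino acid carrier gene, was above background on 1 of the 3 arrays at 0 h and on all at 24 h. These genes had an adjusted p of 2.03e-07 to 0.000544. Without the replicate block 6 synthetase and 4 transporter genes were higher.

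In glycolysis 11 of 23 genes were higher and 3 lower (median 0.44, 0.88 in WT cells), with 11 higher and 2 lower in Bach2-/- cells without the doubted arrays. The hexokinase gene Hk2 gave 0.12, -0.43 and -0.44 at 0 h against 1.99, 0.74 and 1.60 at 24 h and rose by 1.69 ± 0.18, and the phosphofructokinase gene Pfkp gave 1.82, 1.40 and 1.27 at 0 h against 4.13, 3.33 and 3.67 at 24 h and rose by 2.21 ± 0.15. Both times lay apart for each. Gapdh (1.24 ± 0.15), Aldoa (1.15 ± 0.13) and Pfkfb3 (1.29 ± 0.18), whose product makes the activator of phosphofructokinase, rose as well (adjusted p 5e-06 to 0.000397). The enolase gene Eno2, above background on 2 of 3 arrays at 0 h, rose by 3.36 ± 0.27. Without the replicate block 6 were higher and 0 lower.

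Cholesterol synthesis was the list with the largest share of rises. Of 24 genes 19 were higher and 0 lower (median 1.02), against 21 and 0 in WT cells (median 1.35), and without the replicate block 11 were higher. Cyp51 (2.05 ± 0.18), which removes a methyl group from lanosterol, Insig1 (1.82 ± 0.16), whose product holds back the factor SREBP, Hsd17b7 (1.80 ± 0.15), Idi1 (1.70 ± 0.19) and Sqle (1.58 ± 0.19), squalene epoxidase, rose (adjusted p 1.73e-05 to 0.000194). Cyp51 gave 0.042, -0.56 and -0.20 at 0 h against 2.09, 1.20 and 2.15 at 24 h, with no overlap.

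SREBP binds sterol regulatory elements, and a form of them, TCACNCCAC, was searched on both strands of the RefSeq promoters of GRCm38.p6. These run from 250 bases before to 50 after a start. For every motif here only the 250 bases before it were searched. The element is in 1.05% of all 32851 promoters and in 1.2% of the tested genes with a promoter. Among the 16 cholesterol genes with a promoter in the table, that of Hmgcs1 alone holds it. Hmgcs1 rose by 0.91 ± 0.15 (adjusted p = 0.00124). Its 150 bases before the start are shown to give the setting of the element, which is in capitals.
Hmgcs1 (chr13:119690201-119690350, plus strand): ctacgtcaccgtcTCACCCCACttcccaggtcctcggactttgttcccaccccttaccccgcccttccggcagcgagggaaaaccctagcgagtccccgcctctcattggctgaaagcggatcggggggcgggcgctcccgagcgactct

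Of 28 proteasome and chaperone genes 18 were higher and 0 lower (median 0.58), while all 28 were higher in WT cells (median 1.28). The mitochondrial chaperone gene Hspa9 gave 4.48, 3.66 and 3.70 at 0 h against 6.09, 4.67 and 5.33 at 24 h and rose by 1.42 ± 0.17, and Psmd1, a subunit gene of the proteasome's cap, gave 4.59, 4.24 and 4.38 at 0 h against 5.58, 5.01 and 5.57 at 24 h and rose by 0.99 ± 0.15 (adjusted p 0.000146 to 0.000823). The times lay apart for both. Of 22 genes of oxidative phosphorylation 3 were higher and 0 lower (median 0.14), against 21 and 0 in WT cells (median 0.85), with 4 higher and 0 lower in Bach2-/- cells without the doubted arrays. The ATP synthase gene Atp5g1 rose by 0.70 ± 0.15 (adjusted p = 0.00535, and 0.137 without the replicate block), from 6.60, 6.09 and 5.98 to 7.14, 6.69 and 6.93. The difference between genotypes passed for 1 of the 28 and 1 of the 22 genes, both lower in Bach2-/- cells, against 3.43% of all genes. These numbers were 0 and 0 without the doubted arrays, and also 0 and 0 without the replicate block, and reached 13 and 16 when 1 of the 12 arrays was left out (lowest 0 and 0). The number higher when 1 Bach2-/- array was left out was 8 to 22 of the 28 and 1 to 5 of the 22, and 5 and 0 without the replicate block.

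**Figure D2:**
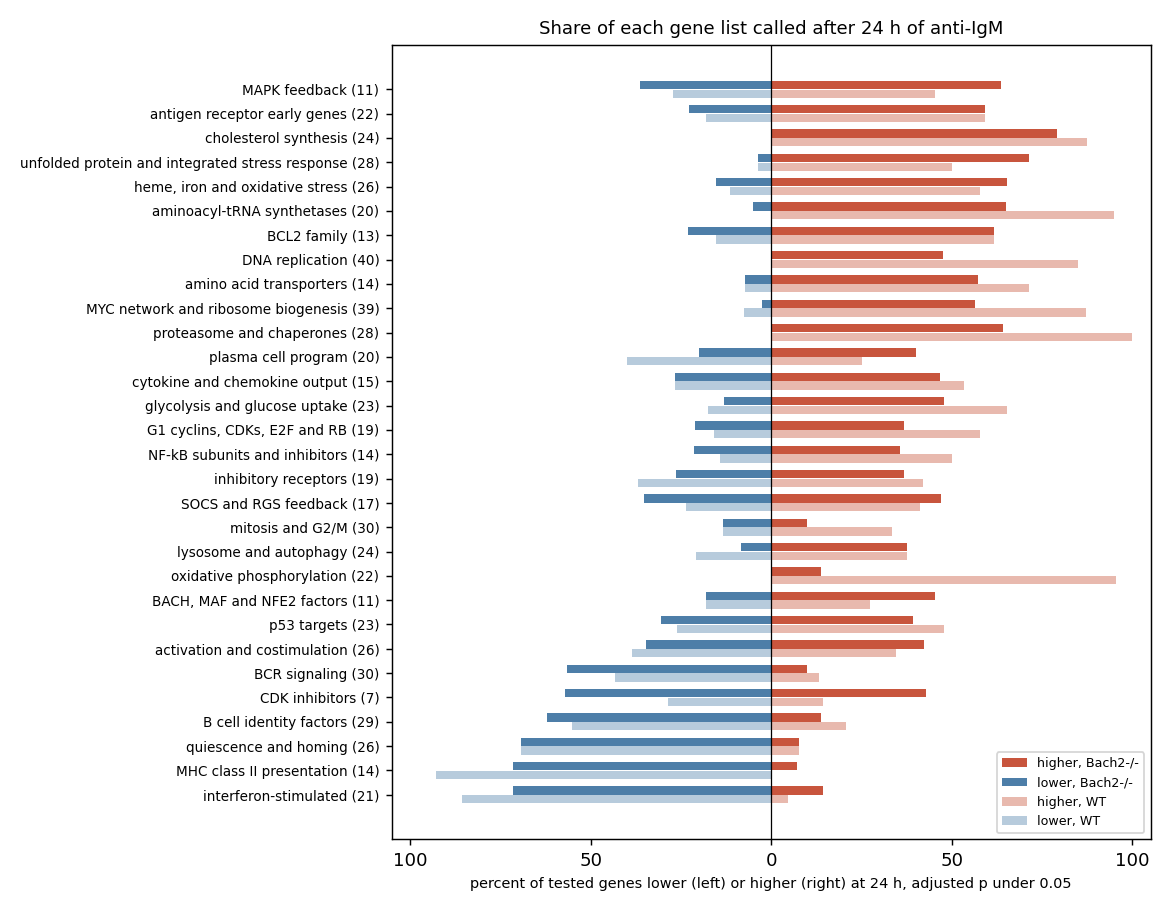
Percent of the tested genes of each list that were higher (to the right) or lower (to the left) at 24 h than at 0 h, dark bars for Bach2-/- and pale bars for WT cells, with the number of tested genes in brackets and the lists in order of the median Bach2-/- change. Over all genes 17.7% were higher and 16.7% lower in Bach2-/- cells, and 28.3% and 19.2% in WT cells, and the oxidative phosphorylation list had 3 of 22 higher in Bach2-/- and 21 of 22 in WT cells.

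Inhibitors of cyclin-dependent kinases, which hold cells before DNA synthesis, moved in opposite directions. Cdkn1a, Cdkn2a and Cdkn2b rose and the other 4 fell. Cdkn1a, the gene of p21, gave -3.30, -3.81 and -3.94 at 0 h against 1.89, 1.45 and 1.00 at 24 h and rose by 5.13 ± 0.17 (adjusted p = 9.6e-08). On the WT arrays it gave -2.86, -3.04 and -3.06 at 0 h against -2.0, -2.30 and -2.99 at 24 h, and the changes differed by 4.58 ± 0.24 (adjusted p = 4.69e-05). All 3 Bach2-/- arrays at 24 h were above every other array. Cdkn2b, the gene of p15, gave -4.78, -5.71 and -5.32 at 0 h against 0.13, 0.62 and 0.41 at 24 h, was above background on 1 of 3 arrays at 0 h and on none of WT cells, and rose by 5.66 ± 0.26. Cdkn2a, the locus of p16 and p19ARF, gave -2.85, -4.57 and -2.96 at 0 h against -0.99, 0.21 and 0.29 at 24 h and rose by 3.29 ± 0.64 (adjusted p = 0.00319). It was above background on 1 of 6 WT arrays, and its difference from WT did not pass (3.45 ± 0.91, adjusted p = 0.0579).

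Cdkn2d (-2.55 ± 0.18), the gene of p19INK4d, and Cdkn1b (-1.44 ± 0.15), that of p27, fell in Bach2-/- cells as in WT cells (-2.47 and -1.26). Cdkn1b gave 3.71, 3.62 and 3.88 at 0 h against 2.12, 2.43 and 2.33 at 24 h. Cdkn1c (-0.87 ± 0.28) and Cdkn2c (-0.75 ± 0.23), genes of p57 and p18, had calls that were lost when any 1 of 5 Bach2-/- arrays was left out, all but 0 h array 1 for Cdkn1c (adjusted p 0.0598 to 0.167) and all but 24 h array 3 for Cdkn2c (adjusted p 0.0557 to 0.102). That of Cdkn2c also ended without the doubted arrays (adjusted p = 0.241), with 3 higher and 3 lower in Bach2-/- cells without the doubted arrays. Adjusted p of the 7 was 9.6e-08 to 0.0373.

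Of 19 genes of G1 cyclins, their kinases and the E2F and RB families 7 were higher and 4 lower (median 0.37, 0.61 in WT cells). Tfdp1 (1.32 ± 0.30), the E2F partner, Ccnd2 (0.92 ± 0.30) and Ccne1 (0.90 ± 0.28), genes of cyclins D2 and E1, Cdk4 (0.86 ± 0.22) and Cdk6 (0.83 ± 0.20), the phosphatase gene Cdc25a (0.72 ± 0.24) and the atypical factor gene E2f7 (0.53 ± 0.17) rose. Ccnd2 was at 3.49, 2.80 and 2.71 at 0 h against 4.95, 2.73 and 4.08 at 24 h in Bach2-/- and at 3.83, 3.11 and 3.52 at 0 h against 6.56, 5.89 and 5.84 at 24 h in WT cells. Its Bach2-/- arrays overlapped between the times and its WT arrays did not, which is no test of a difference between the genotypes. By the test of the difference 1 of the 19 had a lower change in Bach2-/- than in WT cells, against 3.43% of all genes. That number was 0 without the doubted arrays, 0 to 4 when 1 of the 12 arrays was left out and 0 without the replicate block. E2f2 (-3.50 ± 0.21), an activating factor gene, Ccnd1 (-2.21 ± 0.39), above background on 1 of 3 arrays at 24 h, Rbl2 (-1.03 ± 0.14), the gene of p130, and Ccnd3 (-0.71 ± 0.16) fell. The 11 had an adjusted p of 1.84e-06 to 0.0444.

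Cdk2 (0.36 ± 0.19), E2f1 (0.48 ± 0.29), E2f3 (0.37 ± 0.16), E2f5 (0.45 ± 0.16), E2f8 (-0.14 ± 0.33), Tfdp2 (0.34 ± 0.17), Rb1 (0.18 ± 0.13) and Rbl1 (-0.20 ± 0.22) did not pass (adjusted p 0.0535 to 0.783). The other Tfdp2 probe had the opposite sign and was called, so that the direction of Tfdp2 depends on the probe, and that of Rbl1 had the opposite sign and was not called. Calls were lost without Bach2-/- 0 h array 1 or 3 or 24 h array 1 or 3 for Ccnd2 (adjusted p 0.114 to 0.151) and Ccne1 (adjusted p 0.0916 to 0.134), without 0 h array 3 or 24 h array 3 for Cdk4 (adjusted p 0.0607 to 0.0614), without any array but 24 h array 2 for Cdc25a (adjusted p 0.053 to 0.184) and without 0 h array 1 or 2 or 24 h array 1 or 2 for E2f7 (adjusted p 0.0863 to 0.126). The list held 9 higher without the doubted arrays, 1 on slide 1 alone and 0 without the replicate block, with 3, 4 and 4 lower. Without the doubted arrays the calls of Cdk6 (adjusted p = 0.119), Ccnd3 (0.0858) and E2f7 (0.24) ended.

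**Figure D3:**
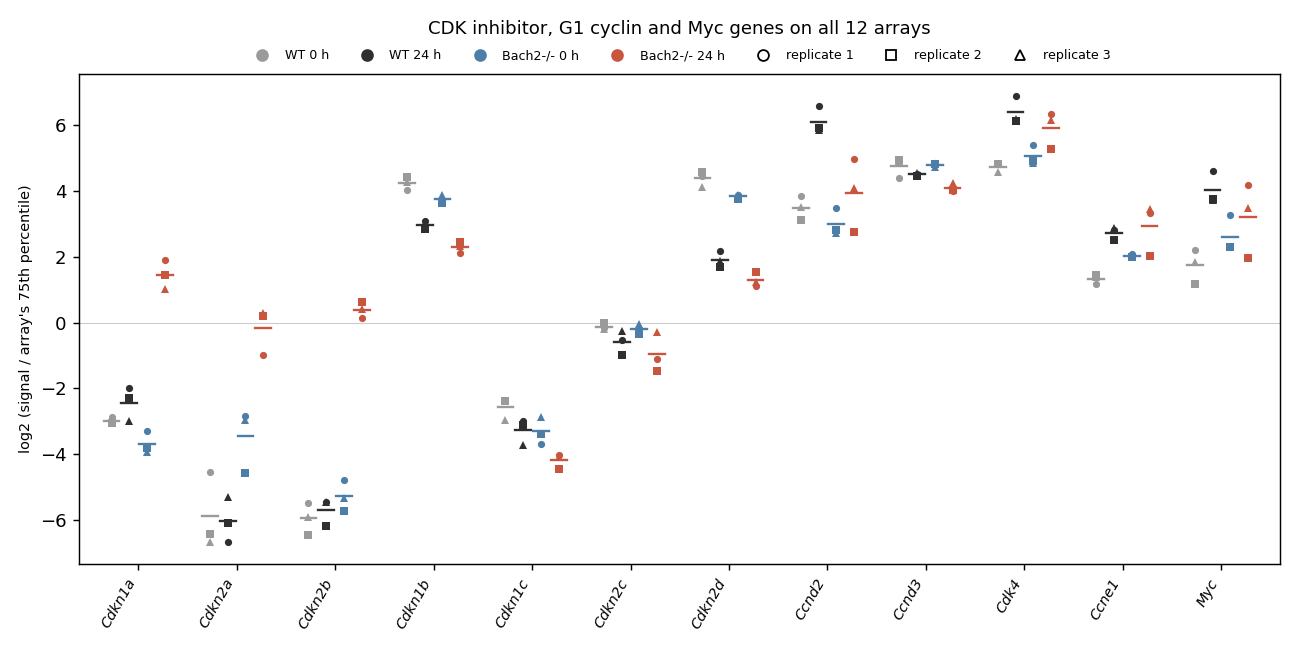
Log2 signal relative to the array's 75th percentile (vertical axis) of CDK inhibitor genes, G1 genes and Myc on all 12 arrays. Points are arrays, shapes give replicate numbers and short lines are group means, and Cdkn1a, Cdkn2a and Cdkn2b stand higher on the 3 Bach2-/- 24 h arrays than on every other array.

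Genes of DNA replication rose in part. Of 40 replication genes 19 were higher and 0 lower (median 0.72), against 34 and 0 in WT cells (median 1.45). Mcm5 and Mcm6, subunit genes of the replicative helicase, rose by 1.24 ± 0.27 and 1.18 ± 0.17, and Gins2, a helicase cofactor gene, by 1.57 ± 0.21 (adjusted p 0.000355 to 0.00579), calls that were lost without the replicate block (0.0523 to 0.185). Mcm6 gave 6.02, 5.01 and 4.95 at 0 h against 7.04, 5.86 and 6.62 at 24 h in Bach2-/- and 5.35, 4.55 and 4.58 at 0 h against 7.53, 6.49 and 6.76 at 24 h in WT cells. The Bach2-/- times overlapped, since 0 h array 1 stood above 24 h array 2, and these are the doubted arrays. Within each replicate number Mcm6 was higher at 24 h than at 0 h in both genotypes. Replicate 1, on slide 2, was the highest of every group. The number higher was 10 to 31 when 1 Bach2-/- array was left out, 29 without the doubted arrays, 5 on slide 1 alone and 1 without the replicate block. By the test of the difference 2 of the 40 changed less in Bach2-/- than in WT cells, against 3.43% of all genes. That number was 0 without the doubted arrays, 0 to 13 when 1 of the 12 arrays was left out and 0 without the replicate block.

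E2F factors control many replication genes. The E2F motif TTTNNCGC is in 4.28% of all RefSeq promoters and in 7.61% of the tested genes with a promoter. It is in 9 of the 32 replication genes with a promoter in the table. That of the origin licensing gene Cdc6 is shown, with the motif, on the other strand, in capitals. Cdc6 was at -3.53, -2.44 and -2.27 at 0 h against -1.96, -2.28 and -0.18 at 24 h and rose by 1.28 ± 0.35, a call lost without Bach2-/- 0 h array 1 or 3 or 24 h array 1 or 3 (adjusted p 0.0635 to 0.0916) or without the replicate block (0.246), and by 2.65 ± 0.35 in WT cells.
Cdc6 (chr11:98908001-98908150, plus strand): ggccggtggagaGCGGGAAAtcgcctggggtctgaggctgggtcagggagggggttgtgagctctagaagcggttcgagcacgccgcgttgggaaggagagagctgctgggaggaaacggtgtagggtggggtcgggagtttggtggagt

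Of 30 genes of mitosis 3 were higher and 4 lower (median 0.21), against 10 and 4 in WT cells. The Bach2-/- counts, 10% and 13.3% of the list, were below the shares over all genes (17.7% and 16.7%). The phosphatase gene Cdc25b gave 3.67, 3.70 and 3.41 at 0 h against 0.79, -0.22 and 0.86 at 24 h and fell by -3.12 ± 0.23, the spindle checkpoint gene Bub1b rose by 1.25 ± 0.20 and the mitotic factor gene Foxm1 by 0.83 ± 0.19 (adjusted p 8.19e-06 to 0.0078). The motif TTTGAA, known as CHR, is in 16% of all RefSeq promoters and in 13.4% of the tested genes with a promoter. It is in 10 of the 25 genes of the list with a promoter in the table. Only 2 of the 25 rose, and 0 of the 10 did. Mki67, the gene of the proliferation marker Ki-67, gave 3.04, 2.73 and 2.42 at 0 h against 2.50, 1.99 and 3.30 at 24 h and did not pass (-0.13 ± 0.30, adjusted p = 0.77). Without the doubted arrays 8 were higher and 1 lower, and without the replicate block 0 and 1. The difference from WT passed for 0 of the 30 genes.

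Besides Cdkn1a, genes that p53 can induce moved both ways (9 of 23 higher and 7 lower), with 8 higher and 5 lower in Bach2-/- cells without the doubted arrays. The kinase gene Plk3 (3.54 ± 0.18), the death receptor gene Tnfrsf10b (2.29 ± 0.39) and the growth arrest gene Gadd45a (1.44 ± 0.19) rose, and Sesn1 (-1.88 ± 0.19) and Trp53inp1 (-1.71 ± 0.16) fell (adjusted p 8.03e-07 to 0.00152). Gadd45a was at 0.23, 0.36 and 0.81 at 0 h against 2.02, 1.43 and 2.27 at 24 h in Bach2-/- cells and at 0.84, 0.47 and 1.00 at 0 h against 0.29, 0.63 and 0.54 at 24 h in WT cells. Its change in the latter was -0.28 ± 0.19, and the changes differed by 1.72 ± 0.27 (adjusted p = 0.0125), a call lost on slide 1 alone (0.191) and without the replicate block (0.133). Without the replicate block 3 were higher and 3 lower.

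In the BCL2 family 8 of 13 genes were higher and 3 lower, with 7 higher and 2 lower in Bach2-/- cells without the doubted arrays. The survival genes Bcl2l1 (3.77 ± 0.20), which encodes BCL-XL, and Bcl2a1d (2.76 ± 0.20) rose, the latter from a family of near-identical copies whose signals a probe may not tell apart. Bcl2l1 gave 1.53, 1.39 and 1.72 at 0 h against 5.61, 4.74 and 5.60 at 24 h. The survival genes Mcl1 (-1.61 ± 0.14) and Bcl2 (-1.30 ± 0.14) fell, and Bcl2l11 (2.34 ± 0.12), the gene of the death-promoting protein BIM, and Bmf (1.53 ± 0.20) rose (adjusted p 9.87e-07 to 0.000301). Bcl2l11 gave -0.67, -1.13 and -1.08 at 0 h against 1.66, 1.11 and 1.37 at 24 h, so that genes for and against survival were both among those raised.

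Of 28 genes of the unfolded protein and integrated stress responses 20 were higher and 1 lower (median 0.84), against 14 and 1 in WT cells (median 0.40), with 19 higher and 0 lower in Bach2-/- cells without the doubted arrays. The difference from WT passed for 5 of the 28, all higher in Bach2-/- cells, against 1.93% of all genes. The number higher was 1 without the doubted arrays, 0 to 5 when 1 of the 12 arrays was left out and 0 without the replicate block. Chac1, which degrades glutathione, gave -2.15, -2.90 and -2.40 at 0 h against 3.03, 2.65 and 2.58 at 24 h and rose by 5.24 ± 0.26. Asns, asparagine synthetase, gave 0.77, -0.60 and 0.10 at 0 h against 4.42, 3.49 and 3.84 at 24 h and rose by 3.83 ± 0.23, and the pseudokinase gene Trib3 rose by 3.24 ± 0.21 and the serine synthesis gene Psat1 by 1.45 ± 0.21. The times lay apart for each. Of the chaperone genes of the endoplasmic reticulum, Sdf2l1 rose by 1.93 ± 0.25, Hsp90b1, which encodes GRP94, by 1.46 ± 0.19 and Calr, the gene of calreticulin, by 1.43 ± 0.14 (adjusted p of these 7 7.63e-07 to 0.000517). Hsp90b1 gave 5.67, 5.55 and 5.54 at 0 h against 7.30, 6.55 and 7.30 at 24 h in Bach2-/- and 5.15, 5.36 and 5.61 at 0 h against 6.06, 5.80 and 5.92 at 24 h in WT cells. Xbp1, the gene of the factor that drives secretory expansion, rose by 0.84 ± 0.16 (adjusted p = 0.00298), a call lost without the replicate block. Calr is outside the 6 largest of the list and is named for its promoter.

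The endoplasmic reticulum stress element, CCAAT and CCACG with 9 bases between, is bound by ATF6 with NF-Y. It is in 0.113% of all RefSeq promoters and in 0.171% of the tested genes with a promoter. In this list 7 of the 25 genes with a promoter in the table hold it, namely Hsp90b1, Calr, Creld2, Pdia6, Hspa5, Canx and Dnajc3. All 7 rose, and so did most of the list, with 18 of the 25 higher. A form of the ATF4 element, TGATGNAAT, searched on both strands, is in 0.816% of all promoters. It is in 0.494% of the tested genes with a promoter and in 0 of these 25. The promoters of Hsp90b1, which holds 2, and of Calr are shown in the direction of the gene with the elements, on either strand, in capitals.
Hsp90b1 (chr10:86705527-86705676, minus strand): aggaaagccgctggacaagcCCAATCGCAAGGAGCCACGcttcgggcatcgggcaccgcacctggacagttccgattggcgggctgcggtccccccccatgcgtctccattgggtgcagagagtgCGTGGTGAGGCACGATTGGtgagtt
Calr (chr8:84846964-84847113, minus strand): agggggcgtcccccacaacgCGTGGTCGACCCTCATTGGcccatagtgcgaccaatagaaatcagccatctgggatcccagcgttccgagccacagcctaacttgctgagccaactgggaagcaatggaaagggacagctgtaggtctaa

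Of 26 genes of heme, iron and the antioxidant response 17 were higher and 4 lower (median 0.83, 0.97 in WT cells), with 16 higher and 2 lower in Bach2-/- cells without the doubted arrays. Hmox1 changed by 0.98 ± 0.15 in WT cells, where it gave -0.94, -1.20 and -1.30 at 0 h against -0.21, -0.025 and -0.27 at 24 h. Its change exceeded that by 5.44 ± 0.21 (adjusted p = 7.61e-06), and its 3 Bach2-/- arrays at 24 h were above all others. Nqo1 stood at 2.56, 1.95 and 2.18 at 24 h in Bach2-/- cells and at -0.47, -1.33 and -0.90 in WT cells, and Srxn1, sulfiredoxin, at least 71.5-fold higher at 24 h, at 1.87, 0.88 and 1.10 and -3.75, -2.61 and -3.27. At 0 h neither was measurable above background in either genotype. Me1, the malic enzyme gene, was at least 3.52-fold higher and above background on the 3 Bach2-/- 24 h arrays alone of the 12. The differences from WT were 2.80 ± 0.32, 4.58 ± 0.44 and 3.56 ± 0.17 (adjusted p 2.7e-05 to 0.00312), each between fitted values of which some are below background.

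Gclm, a subunit gene of glutathione synthesis, gave -2.23, -2.17 and -2.23 at 0 h against 0.49, 0.58 and 0.69 at 24 h and rose by 2.80 ± 0.16, against 1.96 ± 0.16 in WT cells. The transferrin receptor gene Tfrc (2.35 ± 0.24) and Gsr (2.43 ± 0.14), glutathione reductase, also rose, and Mgst1 (-3.09 ± 0.37), a glutathione transferase gene above background on 2 of 3 arrays at 24 h, and Blvrb (-2.42 ± 0.17), biliverdin reductase B, fell. In this list the named changes had an adjusted p of 2.54e-08 to 0.00015. The difference from WT passed for 6 of the 26, all higher in Bach2-/- cells, against 1.93% of all genes, and for 4 without the doubted arrays. Tfrc, Gsr and Blvrb are outside the 6 largest of the list.

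BACH proteins and NRF2 share sites with the core TGANTCA, the TPA response element of AP-1, which was searched in the promoters together with the longer Maf recognition element. The core is in 6.75% of all promoters and in 5.64% of the tested genes with a promoter. Among the 20 genes of the list with a promoter in the table, Srxn1, Prdx1 and Osgin1 hold it. The longer element is in 0.00609% of all promoters and in none of the tested genes with a promoter, the 20 included. The promoters of Srxn1 and of the peroxiredoxin gene Prdx1, which rose by 1.06 ± 0.16 (adjusted p = 0.000614), each hold 2 cores, shown in capitals.
Srxn1 (chr2:152105374-152105523, plus strand): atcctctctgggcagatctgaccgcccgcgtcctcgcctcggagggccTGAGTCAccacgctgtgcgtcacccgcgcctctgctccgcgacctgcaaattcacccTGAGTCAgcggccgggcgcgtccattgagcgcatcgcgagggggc
Prdx1 (chr4:116685349-116685498, plus strand): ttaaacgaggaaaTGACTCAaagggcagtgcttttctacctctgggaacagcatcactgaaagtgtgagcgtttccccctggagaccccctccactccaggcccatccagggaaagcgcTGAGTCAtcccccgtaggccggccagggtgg

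**Figure D4:**
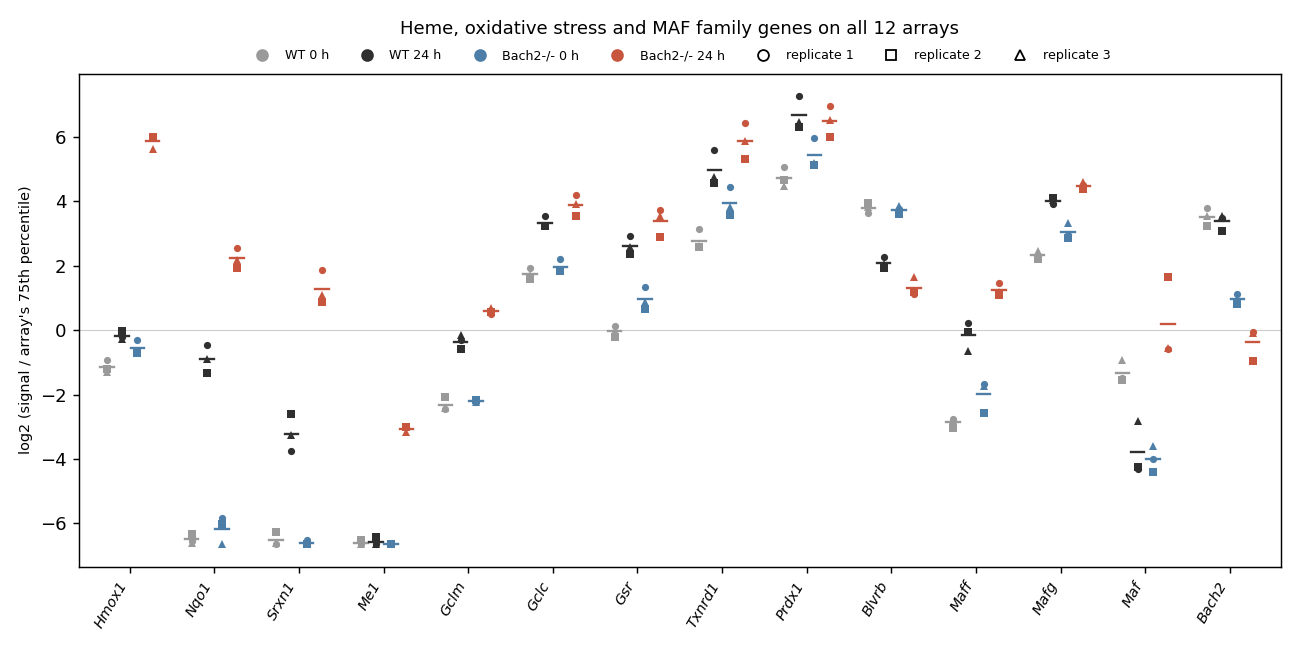
Log2 signal relative to the array's 75th percentile (vertical axis) of genes of heme, oxidative stress and the MAF family on all 12 arrays, with 1 point per array, shapes for replicate numbers and short lines for group means. Hmox1, Nqo1, Srxn1 and Me1 are higher on the 3 Bach2-/- 24 h arrays than on all others, Blvrb falls in both genotypes, and values near the bottom of the plot are not well above background.

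Among the factors that bind or share these sites 5 of 11 genes were higher and 2 lower, with 4 higher and 2 lower in Bach2-/- cells without the doubted arrays. Maf, the gene of the large factor c-MAF, gave -4.00, -4.41 and -3.60 at 0 h against -0.58, 1.67 and -0.55 at 24 h in Bach2-/- and -1.47, -1.56 and -0.92 at 0 h against -4.32, -4.23 and -2.83 at 24 h in WT cells. It rose by 4.18 ± 0.57 in the former and fell (-2.48 ± 0.57) in the latter, a difference of 6.66 ± 0.80 (adjusted p = 0.00377) that was not called on slide 1 alone (adjusted p = 0.0709). On WT 24 h array 2 Maf was under the lowest level that counted as above background (-4.16). The small MAF genes Maff (3.24 ± 0.23) and Mafg (1.44 ± 0.13) rose, as did Mafk (0.53 ± 0.18), whose call was lost without 0 h array 1 or 2 or 24 h array 1 or 3 (adjusted p 0.094 to 0.222). Nfe2l1 rose by 0.62 ± 0.14 (without 0 h array 3 adjusted p = 0.0526), and Nfe2l2, the gene of NRF2, fell by -0.72 ± 0.12. Without the replicate block the calls of Mafk (adjusted p = 0.327), Nfe2l1 (0.114) and Nfe2l2 (0.0642) ended, and without the doubted arrays that of Mafk (0.119). Maff gave -1.68, -2.56 and -1.72 at 0 h against 1.45, 1.11 and 1.20 at 24 h, with no overlap. Bach2 fell by -1.33 ± 0.16 by its brighter probe, and the call was lost with the mean of its 2 probes (adjusted p = 0.202). Its other probe had the opposite sign and was not called. Adjusted p of the 7 was 5.61e-06 to 0.0491. Bach1 (0.081 ± 0.14), Mafa (-0.089 ± 0.15), Nfe2 (-0.20 ± 0.31) and Keap1 (-0.15 ± 0.14), which encodes the inhibitor of NRF2, did not pass (adjusted p 0.449 to 0.688).

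Genes that define B cells fell in majority. Of 29 identity genes 18 were lower and 4 higher (median -1.0, -0.66 in WT cells), with 3 higher and 18 lower in Bach2-/- cells without the doubted arrays. Bcl6, the gene of the germinal center repressor, gave 4.89, 4.41 and 4.62 at 0 h against 1.06, 1.55 and 0.68 at 24 h and fell by -3.54 ± 0.22, and the transcription factor gene Ets1 gave 5.39, 5.12 and 5.16 at 0 h against 2.0, 2.34 and 2.15 at 24 h and fell by -3.06 ± 0.15. Ms4a1 (-2.59 ± 0.18), which encodes CD20, fell. Pax5, the factor that holds B cell identity, fell by -2.42 ± 0.17 and is outside the 6 largest. The repressor gene Bhlhe40 (2.45 ± 0.20) rose (adjusted p of these 5 7.38e-07 to 1.19e-05). All 5 had times without overlap.

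In the plasma cell program 8 of 20 genes were higher and 4 lower (median 0.50), against 5 and 8 in WT cells (median -0.53), with 10 higher and 3 lower in Bach2-/- cells without the doubted arrays. Prdm1 was at 1.94, 1.67 and 1.71 at 0 h against 2.50, 2.31 and 2.86 at 24 h, a change of 0.79 ± 0.31 that did not pass (adjusted p = 0.0768). It stood above its WT levels, which were -2.03, -1.66 and -1.13 at 0 h against -3.34, -2.23 and -1.58 at 24 h, at both times. Irf4, a factor gene needed for plasma cells, gave 4.15, 3.44 and 3.37 at 0 h against 6.19, 5.30 and 5.55 at 24 h and rose by 2.02 ± 0.13. The tetraspanin gene Cd9 (3.14 ± 0.18) and Creb3l2 (1.31 ± 0.17), a factor gene of secretion, rose. Pou2af1 (-1.87 ± 0.15), a coactivator gene of immunoglobulin transcription, Ly6c1 (-1.77 ± 0.15) and Jchain (-1.70 ± 0.38), which links IgM into polymers, fell (adjusted p 1.36e-06 to 0.00692). The Jchain call was lost without the doubted arrays (adjusted p = 0.0552). Without the replicate block 4 were higher and 3 lower. The difference from WT passed for 3 of the 20, all higher in Bach2-/- cells, against 1.93% of all genes. The number higher was 2 without the doubted arrays, 1 to 4 when 1 of the 12 arrays was left out and 0 without the replicate block.

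Of 30 genes of the receptor's signaling chain 17 were lower and 3 higher (median -0.52, -0.32 in WT cells), with 3 higher and 13 lower in Bach2-/- cells without the doubted arrays and 12 lower without the replicate block. Syk, the kinase gene that starts the cascade, gave 6.41, 6.67 and 6.31 at 0 h against 3.31, 3.21 and 3.40 at 24 h and fell by -3.16 ± 0.16. The scaffold gene Bank1 gave 5.65, 5.01 and 5.50 at 0 h against 1.25, 1.09 and 1.37 at 24 h and fell by -4.15 ± 0.17. Cd79b (-1.98 ± 0.18), a signaling chain gene of the receptor, and the kinase gene Lyn (-1.80 ± 0.13) fell as well (adjusted p 2.56e-07 to 2.27e-05). Cd79b gave 9.78, 9.29 and 9.20 at 0 h against 7.72, 7.14 and 7.49 at 24 h, with the 24 h arrays all below. In WT cells Syk changed by -1.58 ± 0.16, and the changes differed by -1.57 ± 0.22 (adjusted p = 0.00764), a call lost on slide 1 alone (adjusted p = 0.124).

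Quiescence and homing genes fell in 18 of 26 cases and rose in 2. The WT counts were 18 and 2, with 2 higher and 16 lower in Bach2-/- cells without the doubted arrays. Beside Klf2, Itgb7 (-4.46 ± 0.17), an integrin gene of gut homing, Tsc22d3 (-4.28 ± 0.27), which encodes the glucocorticoid-induced protein GILZ, and the egress receptor genes S1pr4 (-4.09 ± 0.14) and S1pr1 (-3.71 ± 0.27) fell (adjusted p 9.67e-08 to 6.01e-06). S1pr1 gave 5.09, 5.36 and 5.26 at 0 h against 0.90, 2.31 and 1.37 at 24 h. Tsc22d3 gave 6.27, 5.09 and 5.53 at 0 h against 1.65, 1.35 and 1.04 at 24 h. Both lay lower on all 24 h arrays. Klf2 fell further than in WT cells (-3.65 ± 0.16), by -1.57 ± 0.22 (adjusted p = 0.0081), and that call was lost on slide 1 alone (adjusted p = 0.15) and without the replicate block (0.0574).

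Antigen presentation by MHC class II was lower after 24 h in most of its genes. Of 14 measured 10 were lower and 1 higher (median -1.35), against 13 and 0 in WT cells (median -1.62), with 1 higher and 9 lower in Bach2-/- cells without the doubted arrays. The peptide exchange genes H2-DMb2 (-2.12 ± 0.13) and H2-DMa (-1.91 ± 0.13), the thiol reductase gene Ifi30 (-2.26 ± 0.16) and the protease gene Lgmn (-2.30 ± 0.17) fell, as did H2-Oa (-1.41 ± 0.20) (adjusted p 2.84e-06 to 0.000451). H2-DMa gave 6.65, 5.54 and 5.60 at 0 h against 4.54, 3.90 and 3.64 at 24 h. H2-DMb2 gave 5.48, 4.77 and 4.89 at 0 h against 3.21, 2.88 and 2.68 at 24 h. Both lay lower on all 3 arrays at 24 h. The difference from WT passed for 5 genes that were less lowered in Bach2-/- cells and 1 more lowered, against 1.93% and 3.43% of all genes. It passed for 1 and 0 without the doubted arrays and for 0 and 0 without the replicate block.

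Interferon-stimulated genes fell in 15 of 21 cases and rose in 3 (median -1.59, -2.30 in WT cells), with 3 higher and 14 lower in Bach2-/- cells without the doubted arrays. Ifit3, an antiviral gene, gave 1.24, 1.36 and 0.87 at 0 h against -3.69, -2.77 and -2.37 at 24 h and fell by -4.10 ± 0.47. Rtp4 gave 3.69, 2.63 and 2.77 at 0 h against -0.11, -0.44 and -0.0071 at 24 h and fell by -3.22 ± 0.19, and Cmpk2 fell by -3.94 ± 0.24 and Oas2 by -2.70 ± 0.22, both above background on 2 of 3 arrays at 24 h. The 3 that rose were Ifih1, the RNA sensor gene of MDA5 (3.98 ± 0.22), the ubiquitin-like gene Isg15 (2.74 ± 0.22) and Oasl1 (2.43 ± 0.22). Isg15 gave 3.07, 2.49 and 2.23 at 0 h against 5.33, 5.03 and 5.64 at 24 h in Bach2-/- and 3.33, 2.78 and 2.85 at 0 h against 2.96, 2.72 and 3.24 at 24 h in WT cells. Only the Bach2-/- times lay apart. Oasl1 gave 3.1, 2.41 and 2.60 at 0 h against 4.85, 5.08 and 5.47 at 24 h, and fell in WT cells (-1.74 ± 0.22). Their changes exceeded the WT ones by 2.44 ± 0.31, 2.75 ± 0.31 and 4.16 ± 0.32 (adjusted p 0.000348 to 0.00495). Over the list the difference passed for 8 genes, all higher in Bach2-/- cells, against 1.93% of all genes, and for 6 without the doubted arrays. Adjusted p of the changes named was 1.27e-06 to 0.000126. Oasl1 is outside the 6 largest.

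Feedback regulators of cytokine and G protein signaling were higher in 8 of 17 and lower in 6. Beside Rgs16, whose change exceeded that in WT cells (3.94 ± 0.21) by 4.55 ± 0.29 (adjusted p = 0.000146), Rgs1 (6.01 ± 0.80), Rgs10 (2.62 ± 0.22) and the STAT5 inhibitor gene Cish (3.40 ± 0.22) rose. Rgs18 (-4.24 ± 0.26), above background on 1 of 3 arrays at 24 h, and Socs3 (-3.98 ± 0.26), the gene of the STAT3 feedback inhibitor, fell (adjusted p 2.69e-06 to 0.000316). Rgs1 gave -2.72, -3.74 and -0.45 at 0 h against 4.04, 3.96 and 3.12 at 24 h. Socs3 gave 2.32, 1.55 and 2.70 at 0 h against -1.90, -1.60 and -1.87 at 24 h, so that these families moved both ways. Of 24 lysosome and autophagy genes 9 were higher and 2 lower (median 0.15), with 11 higher and 2 lower in Bach2-/- cells without the doubted arrays. Gabarapl1 (2.18 ± 0.15), of autophagosome formation, Gaa (1.15 ± 0.17), lysosomal glucosidase, and the protease gene Ctsd (1.02 ± 0.15) rose (adjusted p 4.19e-06 to 0.000578). Gabarapl1 gave 3.96, 3.07 and 3.11 at 0 h against 6.32, 4.91 and 5.47 at 24 h. Without the replicate block 4 of the lysosome list were higher and 1 lower.

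The label of the cells was checked with marker genes. The 8 B cell markers were bright, with a summed level, as multiples of the 75th percentile, of 2333 to 3348 at 0 h and 1461 to 2036 at 24 h, and 7 of them fell (with 0 higher and 6 lower in Bach2-/- cells without the doubted arrays). All 5 follicular markers measured fell, among them Fcer2a (-3.41 ± 0.16), Cr2, Ccr7 (-1.02 ± 0.14) and Cxcr5 (-2.13 ± 0.14) (summed 381 to 544 at 0 h and 54.9 to 91.9 at 24 h), while Ighd was not among the genes tested. Of 11 marginal zone markers 9 fell and Cd9 and Plxnd1 (2.72 ± 0.20) rose (with 2 higher and 8 lower in Bach2-/- cells without the doubted arrays), and of 10 B-1 markers 5 rose, the largest being Ahr (3.35 ± 0.17), and 3 fell. The follicular fall and the marginal zone fall share Cr2. Adjusted p of the genes given values here was 5.84e-07 to 0.000377.

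Markers of other cells were also measured, and sums over different probes do not rank the cell types. Over all genes 17.7% rose and 16.7% fell. The T cell (9.09% and 18.2%), macrophage (20% and 10%) and plasma cell markers (16.7% each way) lay near those shares. Of 11 T cell markers Lck (2.23 ± 0.16) rose and Cd2 and Cd8a fell, and Cd3e was at 2.43, 2.70 and 2.67 at 0 h against 1.91, 3.33 and 2.57 at 24 h (summed list 125 to 144 at 0 h and 81.5 to 103 at 24 h). The Cd8a call was lost without 0 h array 1 or 3 or 24 h array 1 or 2 (adjusted p 0.0541 to 0.145) and without the doubted arrays (0.21), with 1 higher and 1 lower in Bach2-/- cells without the doubted arrays. Of 7 NK markers 4 fell (summed 14.7 to 16.7 at 0 h and 9.05 to 14.2 at 24 h), among them Gzma (-3.21 ± 0.25) and, by bound, Gzmb (at least 5.04-fold). Ifng rose while these 4 fell and the other 3 did not pass, and which cells its signal came from was not tested. Of 10 macrophage markers Adgre1 (1.40 ± 0.19) and Cd14 (1.71 ± 0.38) rose and Vcam1 fell (summed 11 to 14.6 at 0 h and 8.26 to 22.4 at 24 h), and the highest sums lay on 24 h array 2. Calls were lost without the doubted arrays for Cd14 (adjusted p = 0.114, with 1 higher and 2 lower in Bach2-/- cells without the doubted arrays) and without 0 h array 1 or 2 or 24 h array 1 or 3 for Vcam1 (adjusted p 0.0551 to 0.0621). Of 10 neutrophil markers none passed by limma, with 0 of 10 at an adjusted p under 0.05 in either direction and 1 at an unadjusted p under 0.05 (summed 136 to 268 at 0 h and 128 to 301 at 24 h). Sums were 257 to 407 at 0 h and 174 to 423 at 24 h for 7 dendritic cell markers (1 higher and 3 lower, with 1 higher and 2 lower in Bach2-/- cells without the doubted arrays), 18.5 to 55.9 at 0 h and 4.72 to 17.9 at 24 h for 7 erythroid and platelet markers (0 and 3) and 164 to 346 at 0 h and 144 to 267 at 24 h for 6 plasma cell markers (1 and 1, with 3 higher and 0 lower in Bach2-/- cells without the doubted arrays). The part of these cells in the results above was not tested, and fewer cells of a type and less RNA per cell cannot be told apart in bulk samples.

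The Bach2-/- response was then set against the WT response gene by gene with the interaction term. The difference passed for 1219 genes (5.36%), with 438 (1.93%) higher and 781 (3.43%) lower in Bach2-/- cells. The count was 82 without the replicate block (62 higher and 20 lower), 98 on slide 1 alone and 291 without the doubted arrays (183 and 108). It was 259 without WT 0 h array 3 and 2968 without WT 0 h array 2, between which the other 10 arrays left out in turn lay. Of 126 genes named or listed that passed, 45 kept the call without any 1 of the 12 arrays. Both responses passed in opposite directions for 92 genes (0.405%), 52 of which rose in Bach2-/- and fell in WT cells.

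The largest positive differences were in Maf, Hmox1, Srxn1, Cdkn1a, Rgs16 and Il2rb, described above, and in Pcp4, a calmodulin regulator gene, and AA467197. Pcp4 gave -1.39, -1.36 and -1.54 at 0 h against 2.90, 2.15 and 2.20 at 24 h in Bach2-/- cells and 1.68, 1.54 and 1.27 at 0 h against 0.23, 0.46 and 0.46 at 24 h in WT cells. It rose in the former (3.85 ± 0.19) and fell in the latter (-1.11 ± 0.19) and so stood below the WT arrays at 0 h and above them at 24 h, with a difference of 4.96 ± 0.27 (adjusted p = 4.88e-05). AA467197 gave -3.53, -5.16 and -4.04 at 0 h against 1.60, 3.02 and 1.31 at 24 h and, in WT cells, -4.12, -6.09 and -4.09 at 0 h against -2.58, -2.63 and -3.45 at 24 h. On array 2 of the Bach2-/- and WT 0 h groups it was under the lowest level that counted as above background (-4.94 and -4.20). Its difference of 4.34 ± 0.89 (adjusted p = 0.0309) was lost without any 1 of 8 of the 12 arrays (adjusted p 0.0532 to 0.0882) and without the doubted arrays (0.0859).

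Among the 8 lowest differences, Marcks, whose product links the membrane to actin, gave 5.14, 4.87 and 4.80 at 0 h against 4.09, 3.95 and 4.26 at 24 h in Bach2-/- cells and 3.57, 3.56 and 3.67 at 0 h against 5.83, 5.50 and 5.49 at 24 h in WT cells. It fell by -0.83 ± 0.15 in the former and rose (2.01 ± 0.15) in the latter, a difference of -2.84 ± 0.21 (adjusted p = 0.000262). The potassium channel gene Kcnk10 gave -2.49, -3.78 and -3.40 at 0 h against -3.39, -3.58 and -3.94 at 24 h and -2.20, -3.12 and -2.91 at 0 h against 0.62, -0.15 and -0.17 at 24 h, a difference of -3.26 ± 0.27. Its Bach2-/- times overlapped and its WT times did not. On Bach2-/- 24 h array 2 Kcnk10 was under the lowest level that counted as above background (-3.33). Prr7 gave 1.27, 1.32 and 1.51 at 0 h against -1.98, -1.41 and -1.16 at 24 h and 0.45, 0.99 and 0.63 at 0 h against 0.70, 0.80 and 0.80 at 24 h, a difference of -2.96 ± 0.25 (adjusted p of the last 2 0.000545 to 0.000548). In Prr7 the Bach2-/- arrays alone parted the times.

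Ackr3, a chemokine scavenger receptor gene, was well above background on 0 of 3 Bach2-/- 24 h arrays and at least 1.41-fold lower than at 0 h there, so that its fitted difference has no exact size. The adaptor gene Scimp (-3.09 ± 0.51), Txlnb (-2.93 ± 0.37), the calcium channel subunit gene Cacnb1 (-2.92 ± 0.51) and Kynu (-2.79 ± 0.38), an enzyme gene of tryptophan breakdown, also differed (adjusted p 0.00481 to 0.0171; that of Ackr3 was 0.012). Txlnb was well above background on 0 of 3 WT 0 h arrays, so that its difference has no exact size either, Scimp on 1 of 3 Bach2-/- 24 h arrays, and Cacnb1 on 1 of 3 WT 0 h arrays and on 1 of 3 Bach2-/- 24 h arrays. Calls were lost without WT 0 h array 3 for Scimp (adjusted p = 0.0505) and without Bach2-/- 0 h array 2 or 3, WT 0 h array 3 or WT 24 h array 3 for Cacnb1 (adjusted p 0.0501 to 0.0598). Txlnb lost it with another background correction (0.639), Ackr3 and Kynu on slide 1 alone (0.125 and 0.0798), and Kynu and Cacnb1 without the replicate block (0.164 and 0.227).

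**Figure D5:**
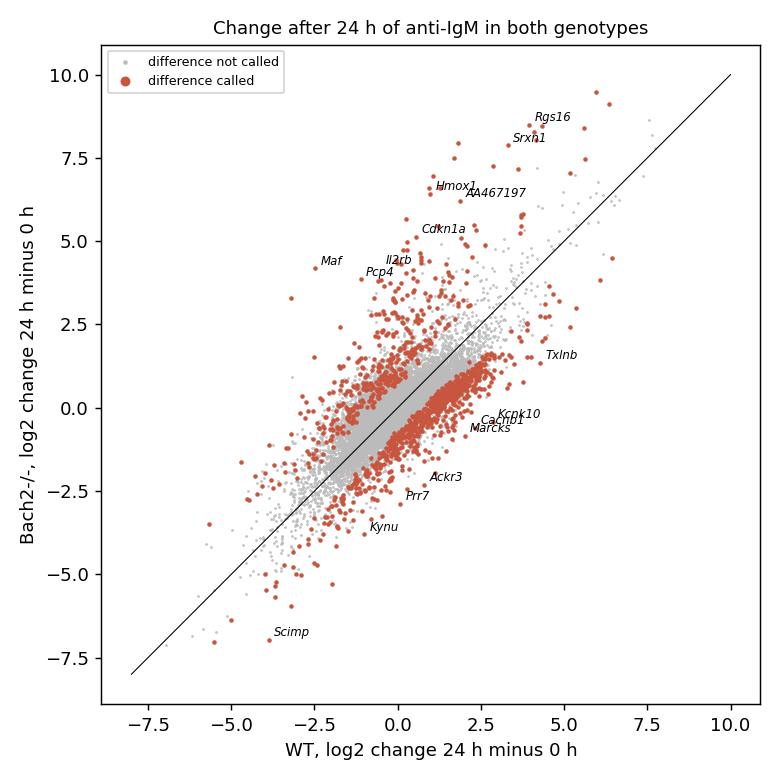
Log2 change from 0 h to 24 h in WT (horizontal axis) and Bach2-/- cells (vertical axis) for the 22742 genes tested, with the line of equal change. Red points are the 1219 genes whose changes differed (adjusted p under 0.05), and the 8 highest and 8 lowest differences are named, among them Maf, Hmox1 and Cdkn1a above the line and Marcks and Kcnk10 below it.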

How the data were processed

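Total RNA was labelled with Cy3 and hybridised to Agilent 1-colour arrays, 1 sample on each. The authors' scanner files, read with Agilent Feature Extraction 10.7.3.1 per the submitters' processing notes, give a processed signal, an intensity that Feature Extraction made after background subtraction, per the file headers. In 1 alternative the deposited median intensities of spot and background took its place. The authors' table of all 12 arrays gives log2 values, which match the log2 processed signal minus its array's 75th percentile with each probe's median set to 0 (Pearson r 0.99916 to 0.99973 against the scanner files), so that scale, centring and direction were found from the values and only the order of steps is unknown. The medians of its columns, replicates 1 to 3 in turn, are -0.039, 0.16, 0.014 (WT, 0 h), -0.27, 0.11, 0.011 (WT, 24 h), -0.26, -0.097, -0.031 (Bach2-/-, 0 h), -0.27, 0.49, 0.071 (Bach2-/-, 24 h).

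Outlier and control spots were left out (643 probe values were lost), signals were taken relative to the 75th percentile of the array, floored at 0.01 and logged to base 2. The test covered the 30731 of 55681 probes that some group had well above background in all its 3 arrays, and a gene took its brightest probe (22742 genes, 13135 with a RefSeq symbol from a table of GRCm38.p6). No probe was saturated. Of 26273 probes with a curated mRNA accession 25731 matched, and 29268 probes kept the name in the file. Where all 3 arrays of a time are below background, the change is given as a bound.

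Group means and the replicate number as an additive block entered 1 limma 3.58.1 fit of the 12 arrays (R 4.3.3, Python 3.11.15), with 6 residual and 3.53 prior degrees of freedom, and 2-sided p-values were adjusted by Benjamini-Hochberg. Replicate numbers come from the labels. Pairs of arrays with 1 number (18) had deviations from their groups correlated by 0.467 to 0.89, against 0.246 to 0.643 for the 12 other pairs on slide 1 and -0.816 to -0.416 for the 24 across slides. The fit was tested on simulated data.

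The genes and lists were chosen with earlier results of these data known. Named are the 12 largest rises and falls, the 4 largest each way by bound, up to 6 called members of a list by size of change, all CDK inhibitor, G1 and BACH, MAF and NFE2 genes, the 8 highest and 8 lowest differences, and Bach2, Hmox1, Prdm1, Myc, Mki67, Cd69, Cd86, Egr1 and Xbp1. Some genes that this rule gives are not reported here. Others are named to complete a group, after their values were seen. Alternatives were no block, slide as block, fewer arrays, other scalings, background, filters and probe rules, the deposited table and leaving out arrays.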

Additional observations from a re-analysis of the deposited data

Results flagged for a closer look

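For 16 genes the 24 h change differed between Bach2-/- and WT cells most strongly, by the interaction term of limma (adjusted p 7.61e-06 to 0.0309). Higher in Bach2-/- cells were Maf by 6.66, Hmox1 by 5.44, Pcp4 by 4.96, Srxn1 by 4.58, Cdkn1a by 4.58, Rgs16 by 4.55, Il2rb by 4.34 and AA467197 by 4.34 on the log2 scale. Lower were Kcnk10 (-3.26), Ackr3 (-3.12), Scimp (-3.09), Prr7 (-2.96), Txlnb (-2.93), Cacnb1 (-2.92), Marcks (-2.84) and Kynu (-2.79). Groups of 3 arrays are too small for the test of single outlying samples. Ackr3 was well above background on 0 of 3 Bach2-/- 24 h arrays, Txlnb on 0 of 3 WT 0 h arrays and Srxn1 on 0 of 3 arrays of both 0 h groups, so that these 3 values have no exact size.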

How the results depend on the processing

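The count of 7831 genes in the Bach2-/- response fell to 3254 without the replicate block (1407 higher and 1847 lower), and over the leave-outs of an array or a replicate number it ran from 3786 without replicate 3 to 8295 without WT 0 h replicate 2. Its other settings stayed within 1.5 times. The count of 1219 in the response difference was 82 without the block, 98 on slide 1 alone, 272 with no filter on dim probes, 291 without the doubted arrays and 1940 with normexp background correction, and 44 (without replicate 3) to 2968 (without WT 0 h replicate 2) over the leave-outs. No leave-out took more than 1 of the 3 arrays of a group. Where a gene also lacked a value dropped as an outlier, 1 array of a group could remain, which was assumed to vary like the others.

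Of 244 named genes past the test 181 kept direction and call under all settings, 53 lost the call under at least 1 leave-out and 49 without the replicate block, and none changed sign. Signs changed among genes that had not passed. E2f8 was 0.057 with normexp and 0.51 without the doubted arrays (-0.63 to 0.37 over the leave-outs), Tfdp2 -0.24 with the mean of probes, Rbl1 0.18 without the doubted arrays (-0.43 to 0.15), Mafa 0.048 on slide 1 alone (-0.26 to 0.048), Keap1 0.018, Cd86 0.024 and Mki67 0.46 without the doubted arrays, and Mki67 0.072 on slide 1 alone (-0.65 to 0.17). Over the leave-outs Bach1 ran from -0.025 to 0.21 and Nfe2 from -0.53 to 0.094. The cause was not tested. The median change of all genes was 0.085, and 0.24 with no filter. The number of arrays and, for dim probes, the background limit the precision.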
